A study of Mus musculus with 6 samples.

Results

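The enzymes that write and remove methyl groups on histones and DNA were examined in whole testes of Alkbh1 knockout mice. The group holds 41 genes. It has lysine demethylases of the Kdm families, the related genes Phf2, Phf8 and Jmjd6, and the Tet dioxygenases. It also has the DNA methyltransferases with their cofactors Dnmt3l and Uhrf1, and a set of histone lysine and arginine methyltransferases. The genes were chosen with earlier results of these data known. Their probe sets were then taken by gene symbol alone, as every probe set whose annotation names exactly 1 of them. Each probe set reads a stretch of a transcript with short oligonucleotides, and many genes are read by more than 1. Of the 41 genes 40 had such a probe set, among 18193 genes named on the array, and these genes had 104 of the 45101 probe sets. Suv39h1 was matched by none, and 1 probe set naming Kdm6b together with another gene was left out.

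The comparison was between 3 mice that lack Alkbh1 (genotype Alkbh1-/-, KO) and 3 wild-type mice (WT), all 12 weeks old. The source labels give the background as C57/BL6 and the genotype field spells it C53/BL6. Total RNA of each whole testis was hybridised to 1 Affymetrix array, and each array gave a normalized log2 value per probe set. Which exons of Alkbh1 the knockout removes was not stated in the labels, so that a probe set outside them would not check the genotype. A whole testis mixes germ cells of all stages with somatic cells, and in such samples fewer cells of a type and less RNA per cell cannot be told apart.

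Methylation of histones and DNA is set by opposing enzymes. Methyltransferases move a methyl group from S-adenosylmethionine to lysine or arginine of a histone, or to cytosine in DNA. Most lysine demethylases carry a JmjC domain that uses iron, oxygen and 2-oxoglutarate, and the Tet enzymes use the same cofactors to oxidise 5-methylcytosine, whereas Kdm1a and Kdm1b use flavin adenine dinucleotide (FAD). The AlkB proteins, ALKBH1 among them, belong to the same superfamily of iron and 2-oxoglutarate dependent dioxygenases. In the testis, removal of repressive H3K9 methylation by Kdm3a is known to be needed for spermatid maturation, and Dnmt3l and Dnmt3a are known to set DNA methylation in male germ cells.

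The promoters of these genes have a feature that their choice did not use. CpG dinucleotides, the sites that DNA methyltransferases and Tet enzymes act on, were counted in RefSeq promoters of build GRCm38.p6, from 250 bases before to 50 after a start site. Of the 41 genes 34 had an entry, with 49 promoters. The median promoter of the group held 26 CpG, against 7 over all 32851 promoters of the table and 13 over those of protein-coding genes. At the richest start of each gene, 33 of the 34 genes (97.1%) held at least 10 CpG, against 59.5% of the protein-coding genes. Dnmt3l, the catalytically inactive partner of Dnmt3a, was the exception with at most 6 CpG at any of its 3 starts, and Phf2, a JmjC protein with a PHD finger, had the most with 63. The 200 bases before the start are shown for these extremes and for Kdm4a and Tet2, the 2-oxoglutarate dependent demethylases with the smallest p-values described further on. CpG is in capitals and each sequence runs 5′ to 3′ along the gene.
Phf2, chr13:48870886-48871085, minus strand: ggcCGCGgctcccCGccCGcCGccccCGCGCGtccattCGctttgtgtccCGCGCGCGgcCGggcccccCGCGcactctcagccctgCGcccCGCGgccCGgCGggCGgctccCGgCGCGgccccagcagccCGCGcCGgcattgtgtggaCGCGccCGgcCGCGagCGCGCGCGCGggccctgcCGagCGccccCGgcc
Dnmt3l, chr10:78042087-78042286, plus strand: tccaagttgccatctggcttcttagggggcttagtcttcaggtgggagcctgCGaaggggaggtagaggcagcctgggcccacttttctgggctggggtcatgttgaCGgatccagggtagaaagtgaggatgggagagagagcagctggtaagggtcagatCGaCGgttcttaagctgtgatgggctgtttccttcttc
Kdm4a, chr4:118180044-118180243, minus strand: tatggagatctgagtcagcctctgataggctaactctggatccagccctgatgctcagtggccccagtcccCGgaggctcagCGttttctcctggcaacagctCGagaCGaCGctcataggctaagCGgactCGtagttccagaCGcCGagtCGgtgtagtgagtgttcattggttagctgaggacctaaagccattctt
Tet2, chr3:133544391-133544590, minus strand: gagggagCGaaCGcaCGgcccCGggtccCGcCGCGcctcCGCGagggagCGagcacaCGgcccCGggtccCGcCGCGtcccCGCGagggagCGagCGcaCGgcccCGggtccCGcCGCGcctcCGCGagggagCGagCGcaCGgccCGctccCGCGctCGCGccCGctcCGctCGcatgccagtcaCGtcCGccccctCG

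These stretches hold 41, 4, 10 and 40 CpG in the order shown, so that Tet2 and Phf2 are alike in density and Dnmt3l stands far below. The CCAAT box (CCAAT, either strand) was present in 20 of the 49 promoters (40.8%), close to its share of 37.4% over all promoters. The cAMP response element (TGACGTCA, which reads alike on either strand) was present in 2 (4.08%), those of Suv39h2 and Phf8, against 1.79% of all promoters. These are matches of letters and say nothing about binding.

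The arrays and labels were checked on the targeted gene and on markers of testis cells. The brighter probe set of Alkbh1 read 8.43, 8.65 and 8.72 in the WT mice and 5.758, 5.296 and 5.2 in the KO mice (limma adjusted p = 0.000582). Its other probe set missed the threshold, and its groups did not overlap either (limma adjusted p = 0.0697). Defining markers of spermatids were near the top of the scale in all 6 testes, with Prm1 at 14.95 or above at its brightest probe set. Correlations between arrays across 27022 probe sets were 0.989 to 0.996. WT mice 1 and 2 lay at opposite ends of the first principal component (−24.36 and 21.03, against −6.85 to 6.87 in the others). Values without a mouse are given for some genes where they turn a direction or move a value clearly, and not for all. Between 3 and 9 of the 39 genes with a tested probe set changed sign when 1 mouse was left out.

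No histone or DNA methylation enzyme passed the test for a change in the KO testes. Of the 104 probe sets 73 were bright enough to be tested, in the upper 60% of all probe sets by mean level, and these belong to 39 genes. None of the 73 passed limma with Benjamini-Hochberg adjustment over all 27022 tested probe sets, of which 11 (0.0407%) passed, 9 (0.0333%) higher and 2 (0.0074%) lower in KO. The smallest adjusted p of a member was 0.91. At an unadjusted p under 0.05 there were 2 member probe sets, where 5.11% of all tested probe sets had such a p. KO and WT values did not overlap at 9 of the 73 (12.3%), 7 with KO above WT and 2 with KO below, against 11.0% of all tested probe sets (7.12% above and 3.84% below). These shares are near the background.

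For each tested probe set the data bound the size of a difference between the genotypes. The largest tested difference of a member was 0.28 log2, and 57 of the 73 differences were under 0.1 log2 in size. The median standard error was 0.081 log2. For each gene the brightest tested probe set was taken to represent it. The 95% confidence interval of the KO minus WT difference then lay within 0.5 log2 of 0 (1.41-fold) for 37 of 39 genes and within 0.25 log2 (1.19-fold) for 23. Over all tested probe sets 93.2% had an interval within 0.5 log2, and 70 of the 73 member probe sets (95.9%) did. The 2 genes outside that bound were Tet2, with an interval up to 0.56, and Kdm6b, with one that reached 0.50. The median size of a member's difference was 0.043 log2, and it was 0.058 over the 13897 genes tested.

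**Figure D1:**
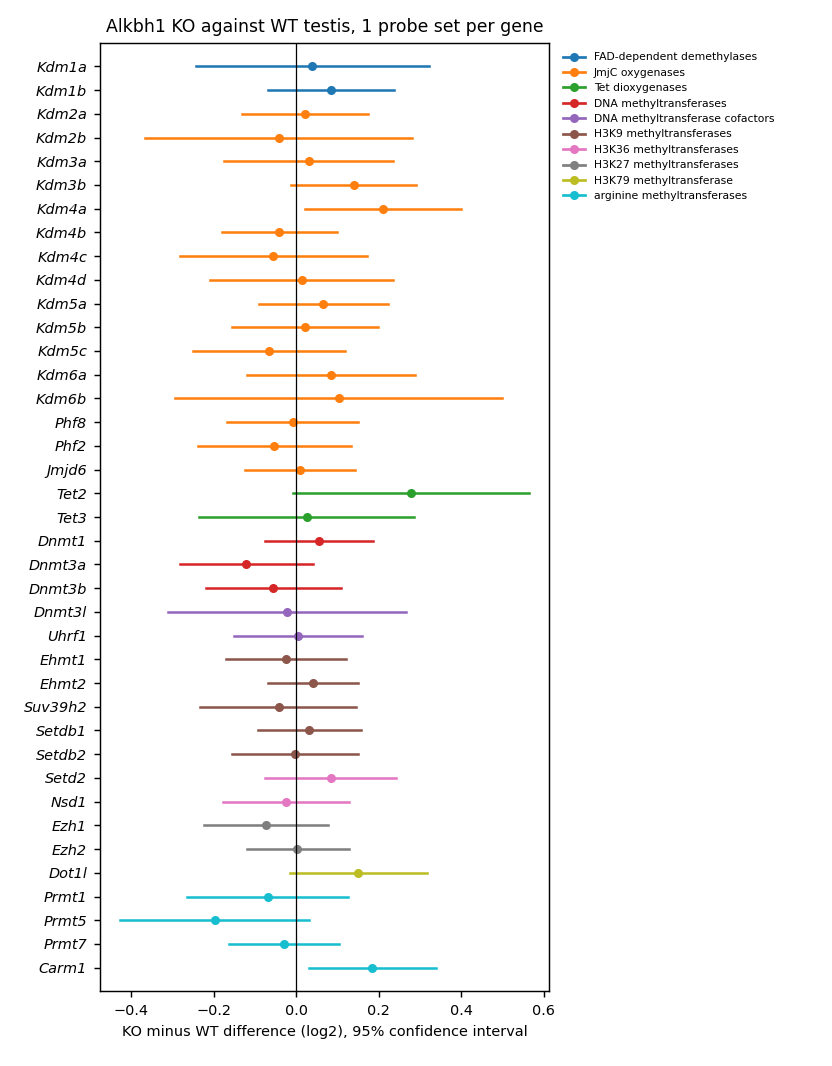
KO minus WT difference in log2 expression (x axis) for the 39 genes with a tested probe set (y axis, 1 probe set per gene), with points for the estimate and lines for the limma 95% confidence interval, coloured by role. The intervals of 37 genes include 0, those of Carm1 and Kdm4a lie above it before adjustment, and no gene passed after adjustment over all 27022 probe sets.

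Among the JmjC demethylases, Kdm4a had the smallest p. It removes methyl groups from H3K9 and H3K36. Its probe set read 7.82, 7.67 and 7.94 in the WT mice and 7.98, 8.03 and 8.06 in the KO mice. All 3 KO values lay above the WT values, narrowly so for WT mouse 3 and KO mouse 1. The difference was 0.21 ± 0.08 log2 (SE, 95% confidence interval 0.02 to 0.40, limma adjusted p = 0.932). A dim second probe set of Kdm4a, under the level limit, differed by 0.09.

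For the 3 paralogues of Kdm4a the differences were smaller. Kdm4b read 7.793, 7.819 and 7.864 in WT and 7.788, 7.781 and 7.783 in KO, with the KO values just below the WT values (−0.04 ± 0.06). Kdm4c read 7.31, 7.62 and 7.53 in WT and 7.32, 7.44 and 7.53 in KO, which overlap. Kdm4d, whose gene is strongly expressed in testis, read 10.82, 11.19 and 11.15 in WT and 11.04, 11.05 and 11.10 in KO. Its KO values lie inside the WT range, and its difference of 0.01 ± 0.10 turned to −0.10 without WT mouse 1. Whether Kdm4a differs from its paralogues in response was not tested.

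The H3K9 demethylases of the Kdm3 family gave small differences. Kdm3b read 8.48, 8.41 and 8.51 in WT and 8.575, 8.56 and 8.69 in KO, again without overlap (0.14 ± 0.07, limma adjusted p = 0.993), while its second tested probe set overlapped (0.02). Kdm3a read 11.66, 12.00 and 11.93 in WT against 11.88, 11.86 and 11.95 in KO (0.03 ± 0.09), a difference that was −0.07 without WT mouse 1. For Kdm3a the spread was wider among WT than among KO mice (SD 0.18 and 0.046), and for Kdm3b it was narrower (0.048 and 0.069).

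The H3K36 demethylases Kdm2a and Kdm2b and the H3K4 demethylases of the Kdm5 family gave small differences or a split between probe sets. Kdm2a differed by 0.02 to 0.10 over 3 tested probe sets and Kdm2b by −0.04 and −0.03 over 2. The first value of Kdm2b was −0.21 without WT mouse 1 (limma adjusted p = 0.436) and 0.08 without WT mouse 2. Kdm5a stood at 0.07 and −0.10 over its 2 tested probe sets, and Kdm5b ran from −0.02 to 0.08 over 3, with the brightest at 0.02, or −0.07 without WT mouse 1. Phf2 ran from −0.05 to 0.03 over 3 tested probe sets. Jmjd6, an enzyme reported to hydroxylate lysine, ran from −0.05 to 0.01. Kdm6b, a demethylase of H3K27, stood at 0.10 and −0.03, and the first turned to −0.11 without WT mouse 1.

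The X-linked demethylases Kdm5c, Kdm6a and Phf8 were looked at apart because most X-linked genes were lower in KO. Of 426 X-linked genes 32.6% were higher in KO, with a median of −0.042 log2, against 55.9% and 0.012 over all genes. No test was made of this difference, and it was not followed mouse by mouse. The representative of Kdm5c, an H3K4 demethylase, read 7.32, 7.43 and 7.51 in WT and 7.44, 7.30 and 7.31 in KO (−0.065 ± 0.08). Kdm6a, which removes H3K27 methylation, read 7.45, 7.61 and 7.47 in WT and 7.50, 7.53 and 7.74 in KO (0.085 ± 0.09). Phf8, a demethylase with a PHD finger, read 8.78, 8.90 and 8.83 in WT and 8.92, 8.80 and 8.77 in KO (−0.01 ± 0.07). All 3 genes overlapped between genotypes. Their tested probe sets did not share a sign: 4 for Kdm5c ran from −0.065 to 0.22, 2 for Kdm6a stood at −0.105 and 0.085, and 3 for Phf8 ran from −0.15 to 0.16.

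Of the Tet dioxygenases, which begin the removal of DNA methylation, Tet2 had the largest difference of all 39 genes. Its tested probe set read 5.87, 6.32 and 6.26 in WT and 6.38, 6.48 and 6.43 in KO. These values are near the level limit of 6.02 for testing, and that of WT mouse 1 is under it. The KO values lay above the WT values, and WT mouse 1 stood below the other 5. The difference was 0.28 ± 0.12 log2 (95% confidence interval −0.01 to 0.56, limma adjusted p = 0.981), and without WT mouse 1 it was 0.14. Its dimmer probe set, not tested, read 5.60, 5.33 and 5.47 in WT and 5.79, 5.44 and 5.78 in KO, where KO mouse 2 lies inside the WT range. Tet3 read 6.36, 6.38 and 6.22 in WT and 6.113, 6.422 and 6.497 in KO (0.03 ± 0.11, and −0.05 without KO mouse 3). All 4 probe sets of Tet1 lay under the level limit of 6.02, between 3.998 and 5.344 on every array, and were not tested.

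The FAD-dependent demethylases differed little. Kdm1a, which removes H3K4 methylation, differed by 0.04 ± 0.12 at the probe set that read 11.44, 11.96 and 11.81 in WT and 11.79, 11.74 and 11.80 in KO, and it turned to −0.11 without WT mouse 1. Kdm1b read 6.90, 6.86 and 6.93 in WT and 6.929, 6.997 and 7.009 in KO. Its groups did not overlap, although the nearest values were 6.926 in WT and 6.929 in KO (0.08 ± 0.07, limma adjusted p = 0.993).

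**Figure D2:**
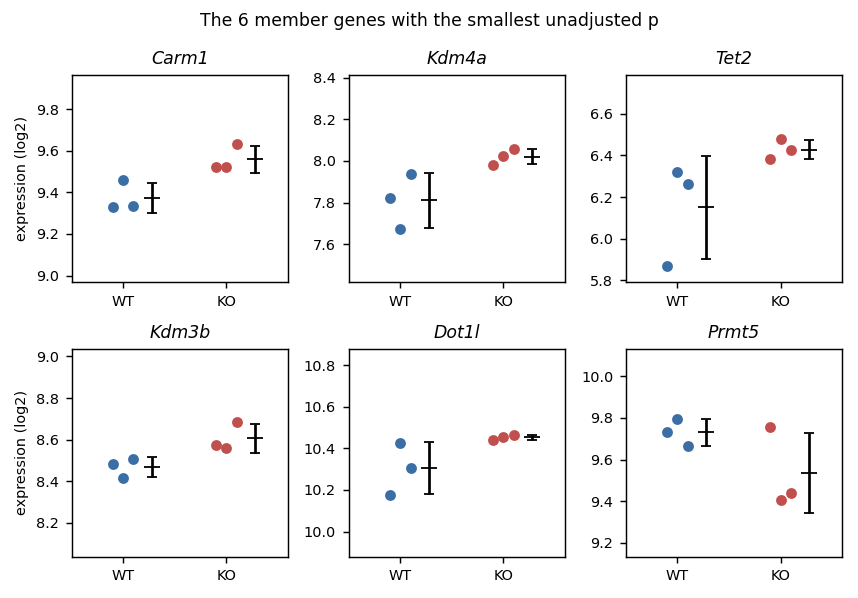
Log2 expression (y axis, each panel spanning 1 log2 unit) in 3 WT and 3 KO mice (points) for the 6 genes with the smallest unadjusted p, with the mean and SD as bars beside the points. KO lies above WT without overlap for Carm1, Kdm4a, Tet2, Kdm3b and Dot1l, and for Prmt5 KO mouse 1 (9.76) lies among the WT values.

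On the side of the methyltransferases, the arginine methyltransferases gave the largest differences, in opposite directions. Carm1, a coactivator that methylates histone H3, read 9.33, 9.46 and 9.34 in WT and 9.52, 9.52 and 9.63 in KO. Every KO value lay above every WT value. The difference of 0.185 ± 0.07 log2 (95% confidence interval 0.03 to 0.34) had the smallest p of all members and did not pass (limma adjusted p = 0.91).

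Prmt5, which makes symmetric dimethylarginine and is known to be needed by germ cells, read 9.73, 9.80 and 9.66 in WT and 9.76, 9.41 and 9.44 in KO. Only KO mice 2 and 3 lay below the WT range, and KO mouse 1 lay inside it. The difference was −0.20 ± 0.10 (95% confidence interval −0.43 to 0.03, limma adjusted p = 0.993). It was −0.31 without KO mouse 1, −0.13 without KO mouse 2 and −0.15 without KO mouse 3. Prmt1, the main source of asymmetric dimethylarginine, stood at −0.07 ± 0.08, and Prmt7 at −0.03 and 0.14 over 2 tested probe sets. The probe sets of Carm1 and Prmt5 end in _s_at, as do the brightest of Kdm1a, Kdm2b, Jmjd6 and Dnmt3l. By Affymetrix naming this means that their probes match more than 1 transcript.

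Dot1l, the methyltransferase of H3K79, was higher in KO at both of its probe sets without passing. The brighter read 10.18, 10.43 and 10.31 in WT and 10.44, 10.46 and 10.46 in KO (0.15 ± 0.07, limma adjusted p = 0.993). The other read 9.93, 10.01 and 9.94 in WT and 10.04, 9.96 and 10.16 in KO (0.09 ± 0.07). The first did not overlap between genotypes and the second did. Without WT mouse 1, the first difference was 0.09.

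The DNA methyltransferases differed little. Dnmt1, which copies methylation after replication, was higher in KO by 0.055 to 0.075 at all 3 probe sets without passing, the brightest of which read 9.56, 9.47 and 9.56 in WT and 9.58, 9.57 and 9.60 in KO. Dnmt3a, a de novo methyltransferase that lies on chromosome 12 like Alkbh1, read 7.63, 7.58 and 7.58 in WT and 7.38, 7.51 and 7.54 in KO. These values did not overlap, with a difference of −0.12 ± 0.07 (limma adjusted p = 0.993). Its 3 other tested probe sets stood between −0.07 and 0.05, so that the probe sets of Dnmt3a did not share a direction. Dnmt3b read 7.65, 7.63 and 7.74 in WT and 7.71, 7.55 and 7.60 in KO.

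The partners of these enzymes overlapped between genotypes. Dnmt3l read 8.07, 8.06 and 7.99 in WT and 8.26, 8.06 and 7.74 in KO, so that the KO values lay on both sides of the WT values. The difference of −0.02 ± 0.12 turned to 0.12 without KO mouse 3. Uhrf1, the reader that brings Dnmt1 to newly made DNA, differed by 0.004 and 0.038 at its 2 probe sets.

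The 5 measured H3K9 methyltransferases lay between −0.043 and 0.040 at their brightest probe sets, and further out at other probe sets of Suv39h2 (−0.11) and Setdb1 (−0.09). Suv39h2, known for its expression in testis, read 9.29, 9.20 and 9.23 in WT and 9.32, 9.23 and 9.04 in KO. KO mouse 3 was lowest there and also at its second probe set, which read 7.83, 7.64 and 7.65 in WT and 7.73, 7.60 and 7.47 in KO, but not at the third. Ehmt2, which dimethylates H3K9, read 12.26, 12.18 and 12.21 in WT and 12.22, 12.29 and 12.25 in KO. Its interval of −0.07 to 0.15 was the narrowest among the 39 genes. Ehmt1, its partner, differed by −0.02, Setdb1 by 0.03 and Setdb2 by less than 0.01 in size.

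For the remaining lysine methyltransferases, Ezh2, the catalytic subunit of Polycomb repressive complex 2 (PRC2) for H3K27, read 10.86, 10.91 and 10.85 in WT and 10.91, 10.91 and 10.82 in KO. Its paralogue Ezh1 read 9.23, 9.27 and 9.12 in WT and 9.13, 9.09 and 9.18 in KO (−0.07 ± 0.07), with 0.10 at its other tested probe set. Setd2, which trimethylates H3K36, read 9.54, 9.39 and 9.44 in WT and 9.62, 9.47 and 9.53 in KO (0.08 ± 0.07). Nsd1, a dimethyltransferase of the same residue, stood at −0.02 and −0.03. All 4 genes overlapped between genotypes at every tested probe set.

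Probe sets of 1 gene set a further limit on these readings. Of 23 genes with more than 1 tested probe set, 14 had probe sets with differences of both signs. The widest splits were those of Phf8 (0.31 log2 between its lowest and highest difference) and Kdm5c (0.28), and the narrowest those of Nsd1 (under 0.01), Kdm1a (0.01) and Kdm2b (0.01). Of the 31 probe sets under the level limit, differences ran from −0.23 to 0.20, and none was called when all 104 were tested (limma, smallest adjusted p 0.998, 3 at an unadjusted p under 0.05).

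The 2-oxoglutarate dependent demethylases were set against the methyltransferases as groups, since ALKBH1 shares the chemistry of the former. Of 18 demethylases (JmjC and Tet) 12 were higher in KO, with a median of 0.021 log2 that turned to −0.0014 under quantile normalization and −0.024 with array weights. Of 17 methyltransferases 7 were higher, with a median of −0.024. Over all 13897 genes 55.9% were higher, with a median of 0.012. No test was made of these groups, and Jmjd6, reported to hydroxylate lysine, was counted with the demethylases. Adding Kdm1a and Kdm1b to the demethylases gave 0.023, and adding Dnmt3l and Uhrf1 to the methyltransferases gave −0.023.

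The order of the groups turned when either of 2 mice was left out. In WT mouse 1 the demethylases lay on average 0.14 log2 below their mean over the 6 mice, whereas the methyltransferases lay 0.016 above theirs. In the other 5 mice the demethylases lay between −0.023 and 0.069. Without WT mouse 1, 7 of 18 demethylases and 7 of 17 methyltransferases were higher in KO, with medians of −0.046 and −0.0026, so that the demethylases were then the lower group. Without KO mouse 3 the demethylases were again the lower group, with medians of 0.0064 and 0.016. Without WT mouse 2 the demethylase median was 0.076 and that of the methyltransferases −0.026.

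**Figure D3:**
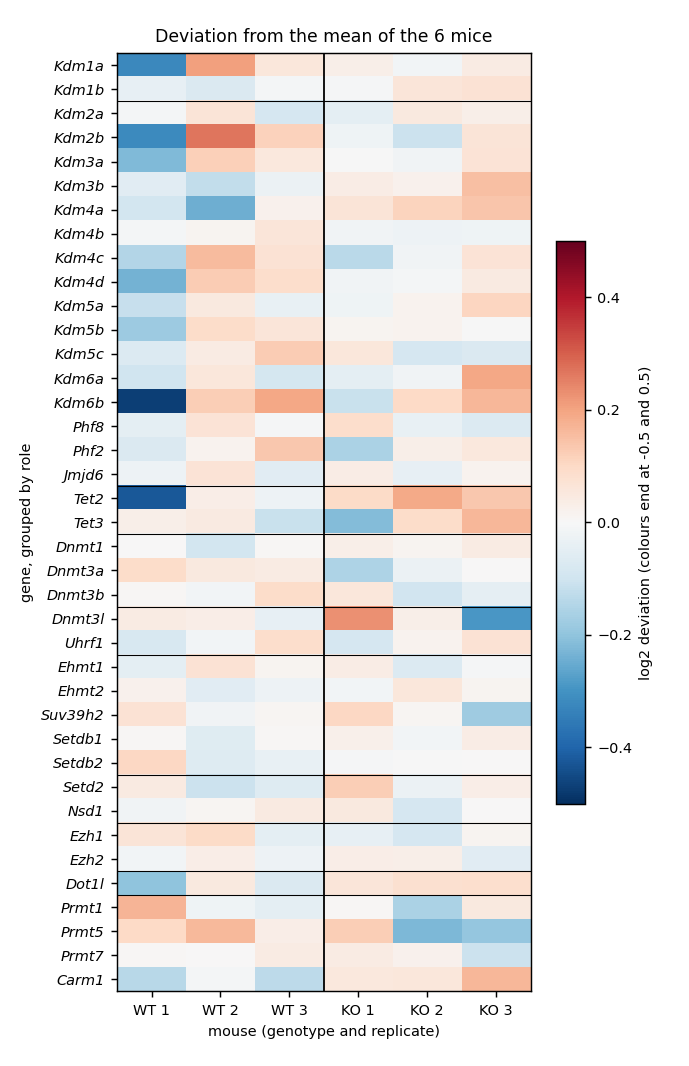
Deviation of each gene (rows, grouped by role with lines between the classes) from its mean over the 6 mice (columns), in log2, with blue for lower and red for higher. WT mouse 1 is the lowest of the 6 for 9 of 18 JmjC and Tet genes, for 2 of 17 methyltransferases and for 32.5% of all genes tested.

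The low values of WT mouse 1 were spread over named demethylases, a pattern picked out after the values were seen. Kdm6b had the widest gap, at 8.47 in WT mouse 1 against 9.06 and 9.13 in WT mice 2 and 3. Kdm2b read 10.53 against 11.12 and 10.97, and its second probe set was also lowest in this mouse (10.30 against 10.70 and 10.65). Kdm1a was lowest there at both probe sets, and Kdm5b at all 3 that were tested, the brightest reading 11.58 against 11.85 and 11.82. Kdm4d, Kdm3a and Kdm4c were 0.34, 0.31 and 0.26 below the mean of the other two WT mice, as their values above show. At the brightest probe set of each gene, the exceptions above that mean were Kdm3b (by 0.022), Kdm4a (0.019) and Tet3 (0.064).

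Methyltransferases were counted in the same way. WT mouse 1 was below the mean of WT mice 2 and 3 for 15 of 18 demethylases (median −0.14 log2), for 7 of 17 methyltransferases (median 0.034) and for 57.8% of all genes tested (median −0.033). Prmt1 was higher in WT mouse 1 (9.92) than in the other two WT mice (9.73 and 9.70), and Setdb2 likewise (8.82 against 8.66 and 8.68). Dot1l was the methyltransferase furthest below, by 0.19. These values are for the brightest probe set of each gene. At dimmer tested probe sets WT mouse 1 stood further above the other WT mice for Setdb1 (8.38 against 7.68 and 8.10) and Ehmt2 (10.58 against 9.94 and 10.27).

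Most markers of spermatocytes were also low in this mouse. The 8 markers, all tested, lay 0.16 log2 below their 6-mouse mean in WT mouse 1 and between −0.036 and 0.089 in the other mice. WT mouse 1 was the lowest of the 6 for 6 of the 8, against 32.5% of all genes tested. Among the marker lists, this count was made for spermatocytes only. Spo11, which makes meiotic double-strand breaks, had the widest gap, at 10.39 in WT mouse 1 and 10.89 to 11.26 elsewhere, and weighs most in that mean. Sycp3, a component of the synaptonemal complex, read 12.04 and 12.18 to 12.43. The recombinase gene Dmc1 went the other way, at 8.70 in WT mouse 1 and 8.48 to 8.67 elsewhere, and Piwil1, of the piRNA pathway, read 11.55 within a range of 11.51 to 11.62. The 7 spermatogonial markers lay 0.11 above their mean in the same mouse, and the 6 elongating spermatid markers 0.036 below. The part of cell composition in the low demethylase values was not tested.

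**Figure D4:**
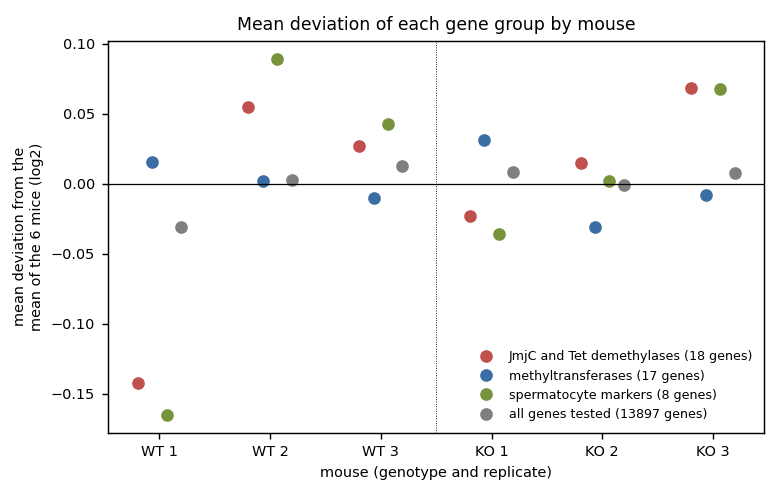
Mean deviation from the 6-mouse mean, in log2 (y axis), for 4 gene groups in each mouse (x axis). Each point is the average over the genes of a group, each gene read at its brightest tested probe set. Demethylases and spermatocyte markers are lowest in WT mouse 1 (−0.14 and −0.16), while methyltransferases stay between −0.031 and 0.031 in all mice.

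The spread between mice of 1 genotype was read beside the differences. The median SD of a member was 0.076 log2 among WT mice and 0.066 among KO mice. Over all genes tested it was 0.094 and 0.067, so that members spread less among WT mice and about the same among KO mice. The median size of a member's KO minus WT difference was 0.043. Of the 39 genes, 12 (30.8%) were lowest in WT mouse 1, against 32.5% of all genes tested.

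Other genes of histone and DNA methylation, in 6 lists of 92 genes in all, also gave no call. Of 83 genes with a tested probe set, 54 were higher in KO (65.1%, median 0.026 log2), against 55.9% of all genes. None of their 172 tested probe sets passed limma after adjustment (0.0407% of all tested probe sets did), and 4 had an unadjusted p under 0.05 (5.11% of all did). By list, 8 of 9 PRC2 partners were higher (median 0.021, and −0.0007 without WT mouse 1), as were 11 of 16 H3K4 methyltransferases and partners (0.017) and 9 of 14 other lysine and arginine methyltransferases (0.048). Readers of methylated DNA and H3K9 were higher in 9 of 14 cases (0.031), and enzymes that supply 2-oxoglutarate or S-adenosylmethionine in 12 of 18 (0.027). Other JmjC proteins were higher in 5 of 12 (−0.016).

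The members of these lists with the smallest p were as follows. Jmjd8, a JmjC protein of the endoplasmic reticulum, read 7.60, 7.70 and 7.69 in WT and 7.50, 7.42 and 7.45 in KO, a difference of −0.21 ± 0.065 without overlap (limma adjusted p = 0.863). Nsd3, an H3K36 methyltransferase, read 8.89, 8.94 and 9.09 in WT and 9.10, 9.22 and 9.18 in KO (0.19 ± 0.07, limma adjusted p = 0.922), and its other 4 tested probe sets ran from −0.01 to 0.22. Idh1, the cytosolic isocitrate dehydrogenase that makes 2-oxoglutarate, read 10.74, 10.75 and 10.84 in WT and 10.98, 10.83 and 11.01 in KO (0.165 ± 0.07, limma adjusted p = 0.936), with KO mouse 2 inside the WT range.

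The readers, PRC2 and the H3K4 group had smaller or less certain differences. Cbx5, which encodes the heterochromatin protein that binds methylated H3K9, stood at 0.13 ± 0.06 at its brightest probe set and at −0.13, 0.05 and 0.04 at its other tested probe sets. Mbd6, of the methyl-CpG binding domain family, stood at 0.11 ± 0.06. The PRC2 partners Phf1 and Jarid2 stood at 0.10 ± 0.07 and 0.05 ± 0.06. Of the H3K4 group, Setd7 stood at −0.11 ± 0.07 and Setd1a at 0.11 ± 0.08. Setd6, a lysine methyltransferase, stood at −0.14 ± 0.07, the JmjC hydroxylase Riox1 at 0.13 ± 0.09, and Ogdh, a subunit of the 2-oxoglutarate dehydrogenase complex, at 0.085 ± 0.08. None of these passed limma after adjustment.

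Markers of the cell types in or near a testis had no call in any of 12 lists, where 0.0407% of all tested probe sets were called. All 6 round spermatid markers (median 0.064 log2) and all 6 elongating spermatid markers (0.025) were higher in KO, as were 5 of 8 spermatocyte (0.018) and 2 of 7 spermatogonial markers (−0.024). Of the Sertoli cell markers 3 of 10 were higher (−0.072). Their mean deviation lay between 0.030 and 0.043 in the WT mice and between −0.044 and −0.029 in the KO mice, without overlap. This was 1 list of the 12, and no share of lists without overlap was drawn up as a background. Of single probe sets, 2 of the 16 tested for Sertoli cells did not overlap, against 11.0% of all tested. Leydig cell markers were higher in 2 of 4 (−0.015), peritubular myoid cell markers in 2 of 5 (−0.046), macrophage markers in 3 of 4 (0.0090) and endothelial markers in 1 of 2 (0.0082). Of red blood cells and epididymis 1 marker each was tested (−0.073 and 0.13), and of adipocytes 2 (0.65). The part of these markers in the differences of the enzymes was not tested.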

How the data were processed

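Expression was measured in testes of 3 WT and 3 KO mice (RNA integrity 9.8 to 10, per the labels). The deposited table holds log2 values normalized by the authors, read as log2 from their range of 2.61 to 15.00, with array medians of 6.62 to 6.65. The submitters' processing notes list GCOS 1.4. For background correction, probe summary and normalization, the method was not given in the sources used here. Such normalization would hide a shift of the whole transcriptome, and dim log2 values understate changes. Signal over background was not used here, and the number of arrays limits the precision.

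Control probe sets (64) were left out, and the upper 60% of the other 45037 by mean over all arrays were tested (lowest mean 6.02). Symbols came from the platform annotation, updated through gene ids with RefSeq (GRCm38.p6). KO was compared with WT by limma 3.58.1 in R 4.3.3 (lmFit, eBayes with an intensity trend, two-sided, Benjamini-Hochberg at 0.05), tested on simulated data. A gene was represented by its brightest tested probe set. Values on all arrays were given, by rule, for the 2 genes of smallest p in each role class, X-linked members and paralogues. From each other list of the pathway, members past the threshold, otherwise up to 2 of smallest p, were named; some further members were shown after their values were seen. Members and lists were chosen with earlier results of these data known. Alternatives covered normalization, filter, variance moderation, array weights, a replicate block, gene representation and left-out arrays. Figures used matplotlib 3.10.9.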

Additional observations from a re-analysis of the deposited data

How the results depend on the processing

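No member probe set passed under any of the 15 alternative fits run (smallest adjusted p from 0.246 with array weights to 1.0, limma). Signs are less stable: of 39 genes, 3 to 9 changed sign when 1 replicate was left out (9 without WT replicate 1 and 7 without KO replicate 3), 11 without WT replicates 1 and 2, 8 with array weights, 6 with quantile normalization and 3 with median centring. The count over all probe sets, 11, became 7 in the upper 40% by level, 46 with array weights, 2 without WT replicates 1 and 2, and 2 to 12 when 1 replicate was left out. Without moderation of variances it was 0, with 1455 at an unadjusted p under 0.05. With the replicate number as a block it was 9, with 0 members. Same-numbered arrays correlated at 0.223, −0.024 and 0.096 in their deviations, and other pairs of WT and KO arrays at −0.279 to 0.252. With 3 mice per group these values cannot show whether the numbers pair the mice.

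The demethylase median, 0.0207, ran from −0.0463 to 0.0764 with 1 replicate left out and was −0.0244 with array weights. The methyltransferase median, −0.0241, ran from −0.0487 to 0.0163 with 1 replicate left out and was 0.0133 without WT replicates 1 and 2. That of other JmjC proteins, −0.0156, was 0.0406 without those 2, 0.0299 with the median of a gene's probe sets, and −0.018 to 0.0394 with 1 replicate left out. That of readers, 0.031, was 0.0107, 0.0099 and −0.0056 to 0.0349 in the same order, and 0.0111 with quantile normalization. The cause was not tested.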

Other observations

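The adipocyte marker Fabp4, a fatty acid binding protein, varied far more between mice than any methylation enzyme. Its brightest probe set read 6.11, 5.77 and 8.38 in WT and 6.84, 9.80 and 7.09 in KO, with WT mouse 3 and KO mouse 2 high and the genotypes overlapping. Adipoq, the other adipocyte marker tested, ran from 8.31 to 8.69.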
